A study of Mus musculus and Acomys cahirinus with 18 samples.

Results

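The genes described here are of solute carrier families that move phosphate, sulfate, glucose, bicarbonate, inorganic ions and other solutes. Not all of these genes are known from the kidney tubule. They were chosen by symbol as the genes of 12 solute carrier families (Slc2, Slc4, Slc5, Slc8, Slc9, Slc12, Slc13, Slc20, Slc23, Slc24, Slc26 and Slc34) that appear in any of 4 tables of changed genes, which gave 52 genes of 6384 different symbols. The reference mouse annotation holds 91 genes that the same rule matches. One entry, Slc13a2os, is an opposite-strand RNA of the dicarboxylate carrier locus and not a carrier.

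Kidney RNA was sequenced from male spiny mice (Acomys cahirinus, wild type) and male C57BL/6 mice (wild type) after unilateral ureteral obstruction (UUO). This surgery blocks the left ureter, so that urine cannot drain and pressure builds up in that kidney. Kidneys were perfused with saline before freezing, per the labels' protocols. The groups were Acomys day 2 (10.3 to 14.3 weeks old), Acomys day 5 (9.9 to 10.4 weeks) and Acomys sham (9.9 to 14.3 weeks), and mouse day 2 (10.1 weeks), mouse day 5 (10.1 to 14.0 weeks) and mouse sham (7.0 to 14.0 weeks), with 3 libraries each and 18 in all. The values are the authors' own comparisons, each obstructed group against sham kidneys of the same species: a log2 fold change, a mean expression (logCPM, the log2 of library-scaled counts averaged over the fit) and a false discovery rate (FDR). Only genes at FDR under 0.05 are listed, no values per library are given, and sequencing depth is not known. Absence from a table can mean no change, a change too noisy to pass, or no test at all. In Acomys it can also mean a locus listed without a symbol, because genes were found by symbol only. Both days of a species were set against the same 3 sham libraries.

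Many of these carriers sit in fixed places along the nephron. The proximal tubule takes back most filtered glucose, phosphate, sulfate and bicarbonate through sodium-coupled carriers of the brush border. The thick ascending limb and the distal convoluted tubule take up salt through cation-chloride cotransporters, and intercalated cells of the collecting duct exchange chloride for bicarbonate. Many of them run on the sodium gradient made by the sodium pump.

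The sodium-phosphate cotransporters gave the sharpest contrast within a family, with Slc34a2 listed as a rise and its relatives Slc34a1 and Slc34a3 as falls in mouse. The promoter windows of these 3 genes are printed because the family moved in both directions. The sequences are from RefSeq on GRCm38.p6, are 300 bases long around the annotated start, and are read on the strand of the gene. Capitals mark TATAAA or its reverse complement TTTATA, a common form of the TATA box.
Slc34a1, chr13:55399398-55399697, plus strand: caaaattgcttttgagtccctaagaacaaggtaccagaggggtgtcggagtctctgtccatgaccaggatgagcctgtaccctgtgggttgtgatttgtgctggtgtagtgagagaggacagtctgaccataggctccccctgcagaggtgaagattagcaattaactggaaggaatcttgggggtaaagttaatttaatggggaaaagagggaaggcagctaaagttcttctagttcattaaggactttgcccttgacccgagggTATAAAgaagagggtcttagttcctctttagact
Slc34a2, chr5:53049103-53049402, plus strand: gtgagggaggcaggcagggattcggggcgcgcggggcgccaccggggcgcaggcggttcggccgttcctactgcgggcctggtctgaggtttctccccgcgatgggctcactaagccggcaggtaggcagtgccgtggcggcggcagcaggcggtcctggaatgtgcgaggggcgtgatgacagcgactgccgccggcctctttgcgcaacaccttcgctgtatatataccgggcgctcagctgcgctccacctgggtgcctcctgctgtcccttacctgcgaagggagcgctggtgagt
Slc34a3, chr2:25234185-25234484, minus strand: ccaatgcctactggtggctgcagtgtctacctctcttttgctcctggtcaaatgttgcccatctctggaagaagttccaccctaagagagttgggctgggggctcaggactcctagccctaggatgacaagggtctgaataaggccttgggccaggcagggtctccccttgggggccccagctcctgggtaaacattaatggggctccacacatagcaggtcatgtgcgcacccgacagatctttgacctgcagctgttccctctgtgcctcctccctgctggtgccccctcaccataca
Only the Slc34a1 window held TATAAA on either strand, at base 267 counted from the first base printed. Other forms of the TATA box were not searched for. The Slc34a2 window holds the related letters tatatata, so the lack of TATAAA does not mean that a window lacks a TATA box. Of all 32851 promoter windows in the table, 13.6% held it, against 7 of 31 windows of mouse carrier genes listed as falls and 2 of 13 of those listed as rises. The base composition also differed, with 46.7% G and C in the Slc34a1 window, 68.7% in that of Slc34a2 and 57.7% in that of Slc34a3. The AP-1 letters TGAGTCA, read on both strands, were in 2 of 31 and 1 of 13 windows, against 5.20% of all windows, and in none of the 3 printed here. The letters CAAAGTCCA of HNF4 were in none of these windows and in 0.475% of all. Windows were found for 26 of 36 fallen and 11 of 13 risen mouse genes. A match is only a match of letters.

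Fewer carriers were listed in obstructed Acomys kidneys than in mouse, but the Acomys lists of changed genes were also shorter. The listed Acomys carriers had more rises than falls on day 2 and more falls than rises on day 5. In obstructed mouse kidneys most of the listed carriers fell on both days. The authors' deposited tables held 4 carrier genes of 1121 listed genes with a symbol for Acomys day 2 (3 rises, 1 fall). They held 14 of 1406 for Acomys day 5 (6 rises, 8 falls). They held 35 of 3915 for mouse day 2 (8 rises, 27 falls) and 47 of 5364 for mouse day 5 (12 rises, 35 falls). Set against this, falls made up 3.66% of all listed genes with a symbol on Acomys day 2, 12.2% on Acomys day 5, 41.7% on mouse day 2 and 39.1% on mouse day 5, so that rises made up 96.3%, 87.8%, 58.3% and 60.9% in the same order. The share of carrier genes that fell was 1 of 4 on Acomys day 2, 57.1% on Acomys day 5, 77.1% on mouse day 2 and 74.5% on mouse day 5. Solute carriers of the other families had shares of 18.2% (2 of 11), 58.3% (7 of 12), 74.1% (63 of 85) and 71.4% (80 of 112) in the same 4 comparisons. No test of these shares was run. In Acomys, 41 of 178 falls and 1080 of 1587 rises had a symbol on day 2. On day 5 these were 172 of 536 falls and 1234 of 1964 rises. Over all Acomys entries, with or without a symbol, falls made up 10.1% on day 2 and 21.4% on day 5. Falls among Acomys carriers may thus have been missed more often than rises. At FDR under 0.01 the Acomys counts were 1 rise and 0 falls on day 2 (Slc34a2) and 2 rises and 1 fall on day 5 (Slc34a2, Slc2a6 and Slc12a1).

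The median log2 fold change of the listed carrier genes was 1.12 on Acomys day 2, -1.65 on Acomys day 5, -1.34 on mouse day 2 and -1.41 on mouse day 5. Over all listed genes with a symbol it was 1.88, 1.87, 1.03 and 1.14. In bulk tissue, fewer cells of a type and less RNA per cell cannot be told apart. Of 8 proximal tubule markers none was listed in Acomys on either day, while 7 fell on mouse day 2 (median -1.61) and 8 on mouse day 5 (median -1.95). Of 5 thick ascending limb markers 1 fell on Acomys day 2, 3 on Acomys day 5 (median -2.29), 3 on mouse day 2 (median -1.55) and 3 on mouse day 5 (median -1.69). The 6 macrophage markers rose in 5 cases on Acomys day 2 (median 2.29), 6 on Acomys day 5 (median 2.68), 5 on mouse day 2 (median 1.95) and 5 on mouse day 5 (median 3.61). Of 4 tubule injury markers 2 rose on each Acomys day (medians 5.46 and 6.02) and 4 on each mouse day (medians 6.58 and 6.54). The part of these changes in the results on the carriers was not tested.

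**Figure D1:**
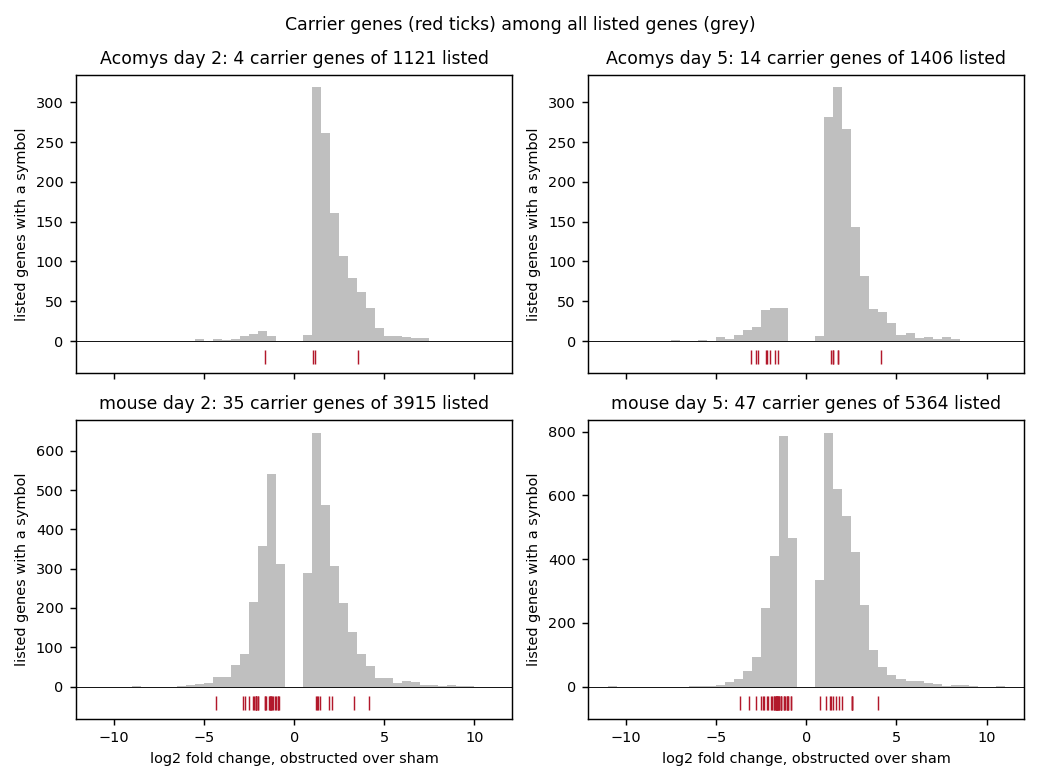
Log2 fold change, obstructed over sham, of every listed gene with a symbol (grey bars, number of genes per bin of 0.5) and of the carrier genes (red ticks) in each of the 4 comparisons. In mouse most ticks lie left of 0, with 27 of 35 falls on day 2 and 35 of 47 on day 5, and the gap around 0 is there because only genes that passed the FDR threshold are listed.

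Phosphate carriers moved in both directions. Slc34a2, which encodes NaPi-IIb, the sodium-phosphate cotransporter known from intestine and lung, rose in all 4 comparisons. The authors' deposited tables gave it 3.56 on Acomys day 2 (FDR 0.000593), 4.14 on Acomys day 5 (FDR 0.000259), 4.16 on mouse day 2 (FDR 1.52e-06) and 3.95 on mouse day 5 (FDR 1.08e-06). Undoing the log, these are 11.8-fold, 17.6-fold, 17.8-fold and 15.4-fold rises, the highest of any carrier gene in each comparison. Slc34a1, which encodes NaPi-IIa, the main phosphate carrier of the proximal tubule brush border, stood at -2.21 on mouse day 2 (FDR 4.08e-06) and at -2.17 on mouse day 5 (FDR 2.57e-06) in the authors' deposited tables. Its mouse transcript level thus stood at 21.6% and 22.3% of sham. Slc34a3, which encodes the related NaPi-IIc, stood at -2.14 on mouse day 2 (FDR 7.36e-06) and at -3.18 on mouse day 5 (FDR 2.49e-07) in the authors' deposited tables, or 22.7% and 11.1% of sham. Neither Slc34a1 nor Slc34a3 was listed by symbol in Acomys.

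Slc20a1, which encodes PiT-1, a phosphate carrier found in most cells, rose in 3 of the 4 comparisons. Its values in the authors' deposited tables were 1.07 on Acomys day 2 (FDR 0.0323), 1.92 on mouse day 2 (FDR 0.000137) and 1.34 on mouse day 5 (FDR 0.00258). It was not listed on Acomys day 5, and its relative Slc20a2 was listed nowhere. Of 8 genes that control phosphate handling, 0 were listed in Acomys on either day, while 3 fell on mouse day 2 (median -1.09) and 4 on mouse day 5 (median -1.31), with 0 rises. This list and the partner lists below were chosen with earlier results of these data known. Kl, the Klotho coreceptor for the phosphate-lowering hormone FGF23, stood at -1.84 and -2.15 on mouse days 2 and 5 in the authors' deposited tables. Pdzk1, a scaffold that holds NaPi-IIa at the brush border, stood at -1.09 and -1.51, and the phosphate exporter gene Xpr1 at -0.94 on mouse day 5 alone, in the same deposited tables of the authors.

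Facilitative hexose carriers of the Slc2 family also split. Those that rose were Slc2a6, Slc2a3 and Slc2a10. Slc2a6, which encodes GLUT6, a carrier of lysosomal membranes, rose in all 4 comparisons. In the authors' deposited tables it stood at 1.17 on Acomys day 2 (FDR 0.0428), 1.74 on Acomys day 5 (FDR 0.00132), 2.12 on mouse day 2 (FDR 0.000361) and 2.55 on mouse day 5 (FDR 4.28e-05). Its logCPM was 4.49 in Acomys and 1.56 in mouse. These levels are not comparable between species, because the Acomys entries are numbered loci and not mouse genes. Slc2a3, which encodes GLUT3, known from neurons and leukocytes, rose by 1.95 on mouse day 5 alone (FDR 9.47e-05, logCPM 0.98) in the authors' deposited table. Slc2a10, which encodes GLUT10, rose by 1.23 on mouse day 2 (FDR 0.0488) and by 1.81 on mouse day 5 (FDR 0.00214) in the authors' deposited tables. Macrophage markers rose beside these genes, as given above. Of 5 neutrophil markers 0 were listed on Acomys day 2, 1 rose on Acomys day 5 (2.27), 3 on mouse day 2 (median 2.93) and 3 on mouse day 5 (median 2.64). The part of these cells in the rises was not tested. Slc2a1, which encodes the widespread glucose carrier GLUT1, was not listed in any comparison.

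The Slc2 genes that fell include the insulin-responsive carrier and the fructose carrier. Slc2a4, which encodes GLUT4, stood at -2.68 on Acomys day 5 (FDR 0.0130), -2.49 on mouse day 2 (FDR 4.13e-06) and -2.44 on mouse day 5 (FDR 2.56e-06) in the authors' deposited tables. Slc2a5, which encodes the fructose carrier GLUT5, stood at -1.55 on Acomys day 5 (FDR 0.0311), -2.29 on mouse day 2 (FDR 1.78e-05) and -2.80 on mouse day 5 (FDR 2.01e-06) in the authors' deposited tables. Both genes fell in Acomys on day 5 but were not listed there on day 2. Slc2a2, which encodes GLUT2, the exit route for glucose on the basolateral side of the proximal tubule, fell by 1.55 on mouse day 5 alone (FDR 3.58e-05) in the authors' deposited table. The urate carrier gene Slc2a9 (GLUT9) stood at -1.29 and -1.39 on mouse days 2 and 5 and Slc2a12 (GLUT12) at -1.58 and -2.15 in the authors' deposited tables. Slc2a13, which encodes a proton-coupled myo-inositol carrier, fell by 1.38 on mouse day 2 alone (FDR 0.00406) in the authors' deposited table. Slc2a4 is also a carrier of fat cells. Of 4 adipocyte markers only Ucp1, which marks brown fat, was listed, in mouse alone, at -5.56 on day 2 and -5.84 on day 5 in the authors' deposited tables, and its part in the fall of Slc2a4 was not tested.

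Every listed gene of the sodium-coupled Slc5 family fell, with 0 rises in any comparison. There was 1 on Acomys day 5 and 0 on Acomys day 2, against 7 on mouse day 2 (median -1.36) and 9 on mouse day 5 (median -1.62), of 13 Slc5 genes in the annotation. Slc5a10, which encodes SGLT5, a mannose and fructose carrier of the proximal tubule, was the one listed in both species. It stood at -2.20 on Acomys day 5 (FDR 0.0164), -1.34 on mouse day 2 (FDR 0.00187) and -1.41 on mouse day 5 (FDR 0.000787) in the authors' deposited tables. Slc5a2, which encodes SGLT2, the main glucose carrier of the early proximal tubule, stood at -1.60 on mouse day 2 (FDR 4.66e-05) and -1.94 on mouse day 5 (FDR 3.91e-06) in the authors' deposited tables. These are 3.03-fold and 3.85-fold lower levels than in sham kidneys. Slc5a1, which encodes SGLT1 of the later proximal tubule, was not listed.

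The lactate carriers of the family fell as well. Slc5a8, which encodes SMCT1, stood at -2.11 on mouse day 2 (FDR 2.83e-05) and -1.63 on mouse day 5 (FDR 0.000226), and Slc5a12, which encodes SMCT2, at -2.37 on mouse day 5 alone (FDR 2.83e-05), in the authors' deposited tables. Slc5a4a, a relative of the sugar carriers, stood at -2.72 on mouse day 2 and -1.71 on mouse day 5 in the authors' deposited tables, at a low logCPM of -0.54. The myo-inositol carrier genes Slc5a3 (-0.84 and -1.02 on mouse days 2 and 5) and Slc5a11 (-1.36 and -1.62) and the vitamin carrier gene Slc5a6 (-1.05 and -1.07) had smaller values in the authors' deposited tables. Slc5a9, which encodes the mannose carrier SGLT4, fell by 1.55 on mouse day 5 alone in the authors' deposited table. Slc5a3 supplies the osmolyte myo-inositol in the medulla.

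Among 10 genes of glucose handling, 1 fell on Acomys day 2, 1 rose and 1 fell on Acomys day 5, 1 rose and 3 fell on mouse day 2, and 1 rose and 5 fell on mouse day 5. Hk2, a hexokinase that traps glucose in the cell, was the one that rose, at 2.30 on Acomys day 5, 3.08 on mouse day 2 and 3.35 on mouse day 5 in the authors' deposited tables. The falls were led by G6pc, which releases free glucose at the end of gluconeogenesis, at -2.54 on Acomys day 2, -3.34 on mouse day 2 and -3.38 on mouse day 5 in the authors' deposited tables. Pck1, the first committed enzyme of gluconeogenesis, stood at -2.42 and -2.48 on mouse days 2 and 5 and was not listed in Acomys, per the authors' deposited tables. Hnf4a, a transcription factor of the proximal tubule, was listed on mouse day 5 alone, at -1.34 in the authors' deposited table. Pck1 and Hnf4a are also among the proximal tubule markers counted above.

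**Figure D2:**
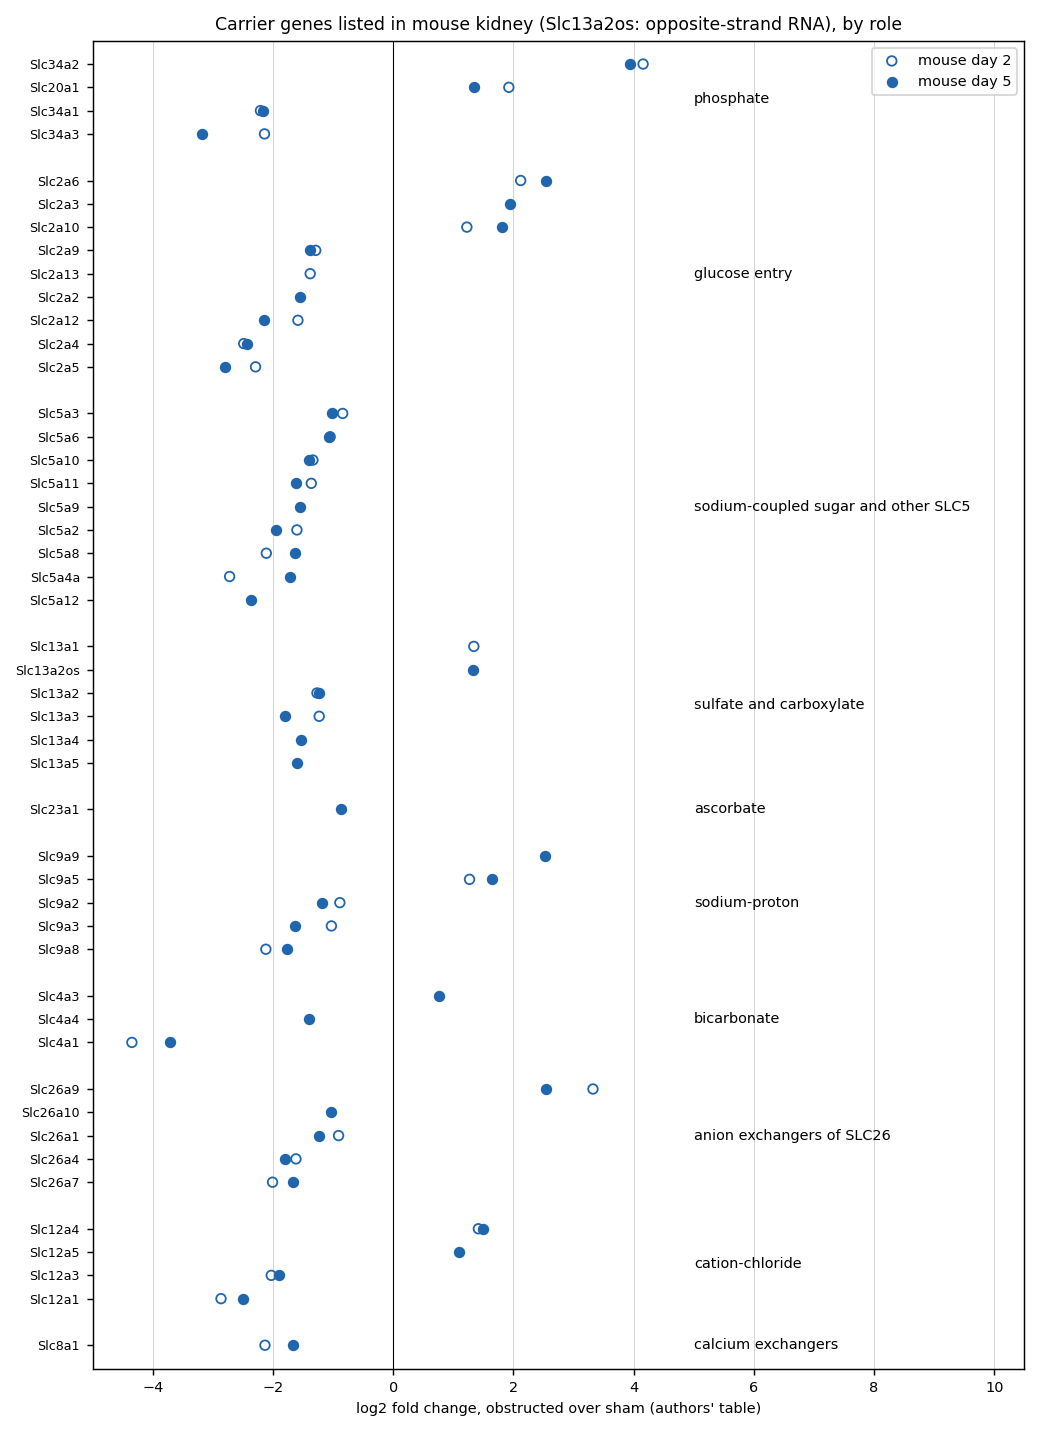
Log2 fold change, obstructed over sham, of 47 genes of the carrier families listed in mouse (Slc13a2os included), grouped by what they carry, with open circles for day 2 and filled circles for day 5. All listed Slc5 genes lie left of 0, while Slc34a2 (4.16 and 3.95) lies farthest to the right and Slc4a1 (-4.35 and -3.71) farthest to the left.

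The sulfate and carboxylate carriers of the Slc13 family held an exception. Slc13a1, which encodes NaS1, the sulfate carrier of the proximal tubule brush border, rose by 1.48 on Acomys day 5 (FDR 0.0228) and by 1.34 on mouse day 2 (FDR 0.0214) in the authors' deposited tables. It was not listed on Acomys day 2 or mouse day 5. Its mean expression was high, with a logCPM of 9.12 in Acomys and 9.20 in mouse. The other Slc13 carriers were listed in mouse alone and fell there. Slc13a3, which encodes the basolateral dicarboxylate carrier NaDC3, stood at -1.23 on mouse day 2 (FDR 0.000532) and -1.79 on mouse day 5 (FDR 6.51e-06), and Slc13a2, which encodes the citrate-reabsorbing carrier NaDC1, at -1.27 and -1.23, in the authors' deposited tables. Slc13a4 and the citrate carrier gene Slc13a5 were listed on mouse day 5, at -1.53 and -1.60 in the authors' deposited table, and Slc13a5 had a logCPM of 0.23. Slc13a2os rose by 1.33 on that day (FDR 0.00328) in the authors' deposited table. Whether the counting used strand is not known here, so reads of Slc13a2 and Slc13a2os may not have been told apart. Slc23a1, which encodes SVCT1, the carrier that reabsorbs vitamin C, fell by 0.88 on mouse day 5 (FDR 0.0310) in the authors' deposited table.

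Sodium-proton exchangers were listed in mouse alone, with 1 rise and 3 falls on day 2 and 2 rises and 4 falls on day 5. Slc9a3, which encodes NHE3, the exchanger that drives most sodium and bicarbonate uptake in the proximal tubule, stood at -1.03 on mouse day 2 (FDR 0.0218) and -1.64 on mouse day 5 (FDR 0.000148) in the authors' deposited tables. Slc9a8, which encodes NHE8 of the brush border and the Golgi, stood at -2.12 (FDR 1.23e-06) and -1.76 (FDR 2.93e-06) on mouse days 2 and 5 in the authors' deposited tables. Slc9a2 (NHE2) stood at -0.89 and -1.18 on those days in the authors' deposited tables. The rises were Slc9a5 (NHE5), at 1.27 and 1.64 on mouse days 2 and 5, and the endosomal exchanger gene Slc9a9 (NHE9), at 2.52 on mouse day 5 (FDR 1.73e-05, logCPM 1.45), in the authors' deposited tables. The scaffold genes Slc9a3r1 and Slc9a3r2 were not listed.

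Among the bicarbonate carriers of the Slc4 family Slc4a1 gave the steepest fall of all the carriers on both mouse days, though not on Acomys day 5, where Slc12a1, Slc12a3 and Slc2a4 stood lower. It encodes AE1, or band 3, the chloride-bicarbonate exchanger of acid-secreting intercalated cells and of red cells. The authors' deposited tables gave it -2.22 on Acomys day 5 (FDR 0.0204), -4.35 on mouse day 2 (FDR 9.05e-07) and -3.71 on mouse day 5 (FDR 9.55e-07). In mouse that is 4.92% and 7.62% of sham, rank 25 by size among the 1633 falls of day 2 and rank 33 among the 2096 falls of day 5. Of 6 erythroid markers none was listed in Acomys. In mouse 1 rose and 1 fell on each day: Epb42 stood at 2.36 and 2.13 and Klf1 at -1.08 and -1.13 on days 2 and 5 in the authors' deposited tables. The globin genes and Alas2 of the list were not among the listed genes. Of 5 intercalated cell markers 0 fell on Acomys day 2, 1 on Acomys day 5, 1 on mouse day 2 and 4 on mouse day 5, with 0 rises. The proton pump subunit gene Atp6v1b1 stood at -1.56 on Acomys day 5, -1.68 on mouse day 2 and -1.25 on mouse day 5 in the authors' deposited tables. The part of either cell type in the fall of Slc4a1 was not tested.

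Slc4a4, which encodes NBCe1, the basolateral bicarbonate exit of the proximal tubule, fell by 1.41 on mouse day 5 alone (FDR 0.000711) in the authors' deposited table. Slc4a3, which encodes the anion exchanger AE3, rose there by 0.77 (FDR 0.0229), the smallest change of any carrier gene in the authors' deposited tables. Slc4a10, a sodium-coupled bicarbonate carrier best known from brain, rose by 1.45 on Acomys day 5 (FDR 0.0304, logCPM 1.21) in the authors' deposited table and was not listed in mouse.

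Anion exchangers of the Slc26 family fell with one exception. Slc26a7, a chloride-bicarbonate exchanger of the collecting duct, was the only carrier gene to fall in all 4 comparisons. In the authors' deposited tables it stood at -1.63 on Acomys day 2 (FDR 0.0495), -2.03 on Acomys day 5 (FDR 0.01004), -2.01 on mouse day 2 (FDR 0.00246) and -1.66 on mouse day 5 (FDR 0.00678). The logCPM of Slc26a7 was 3.14 in Acomys and a low 0.099 in mouse, which are not comparable between species, as said above for Slc2a6. Slc26a4, which encodes pendrin, the exchanger of bicarbonate-secreting intercalated cells, stood at -1.62 and -1.80 on mouse days 2 and 5 in the authors' deposited tables. Slc26a1, which encodes Sat1, the sulfate exit on the basolateral side of the proximal tubule, stood at -0.91 and -1.23 on those days in the authors' deposited tables, so that the 2 proximal sulfate carriers Slc13a1 and Slc26a1 were listed in opposite directions on mouse day 2. Slc26a10 fell by 1.04 on mouse day 5 (logCPM 0.74) in the authors' deposited table. Slc26a9, a chloride carrier known from stomach and airway, rose by 3.32 on mouse day 2 (FDR 0.00336) and by 2.54 on mouse day 5 (FDR 0.0197) in the authors' deposited tables, at a logCPM of only -1.96.

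Of 13 partner genes of acid and base transport, 0 were listed on Acomys day 2, and 3 fell on Acomys day 5 (median -1.90), 8 on mouse day 2 (median -1.77) and 9 on mouse day 5 (median -1.58), with 0 rises. Some of these genes, Atp6v1b1 among them, are also intercalated cell markers, so their falls are in both counts. Car14, a membrane carbonic anhydrase, was lowest in all 3 of these comparisons, at -3.13 on Acomys day 5 (logCPM -0.53), -3.29 on mouse day 2 and -3.76 on mouse day 5 in the authors' deposited tables. The ammonia carrier gene Rhbg stood at -1.90 on Acomys day 5, -2.42 on mouse day 2 and -2.19 on mouse day 5 in the authors' deposited tables. Foxi1, the transcription factor of intercalated cells, was not listed in any comparison.

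The salt cotransporters of the distal nephron fell in both species. Slc12a1, which encodes NKCC2, the furosemide-sensitive cotransporter of the thick ascending limb, stood at -3.09 on Acomys day 5 (FDR 0.00668), -2.86 on mouse day 2 (FDR 5.19e-05) and -2.50 on mouse day 5 (FDR 9.91e-05) in the authors' deposited tables. Slc12a3, which encodes NCC, the thiazide-sensitive cotransporter of the distal convoluted tubule, stood at -2.82 on Acomys day 5 (FDR 0.0175), -2.03 on mouse day 2 (FDR 1.66e-05) and -1.90 on mouse day 5 (FDR 1.78e-05) in the authors' deposited tables. Neither gene was listed on Acomys day 2. On Acomys day 5 they stood at 11.7% and 14.2% of sham, and Slc12a1 was the lowest of the carrier genes there.

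Potassium-chloride cotransporters, which let chloride out of the cell, were listed in mouse alone and did not all rise. Of the Slc12 genes, 1 rose and 3 fell on mouse day 2, and 2 rose and 3 fell on mouse day 5. These counts include a gene not reported here by name. Slc12a4 (KCC1) rose by 1.42 on mouse day 2 (FDR 3.39e-05) and by 1.49 on mouse day 5 (FDR 1.26e-05), and Slc12a5 (KCC2), best known from neurons, by 1.10 on mouse day 5 (FDR 0.0111), in the authors' deposited tables. Slc12a2, the widespread cotransporter NKCC1, was not listed.

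Of 9 genes of the sodium pump and of the channels that work with these cotransporters, 1 fell on Acomys day 2, 4 on Acomys day 5 (median -2.55), 7 on mouse day 2 (median -1.34) and 8 on mouse day 5 (median -1.37), with 0 rises. Kcnj1, the potassium channel ROMK that recycles potassium for NKCC2, stood at -3.61 on Acomys day 5, -1.91 on mouse day 2 and -1.65 on mouse day 5 in the authors' deposited tables. Bsnd, the barttin subunit of the chloride channels, stood at -1.67 on Acomys day 2, -2.32 on Acomys day 5, -1.69 on mouse day 2 and -1.53 on mouse day 5 in the authors' deposited tables.

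Of 8 kinases and ligases that set the activity of the cation-chloride cotransporters, 0 were listed in Acomys on either day, while 3 fell on mouse day 2 (median -1.42) and 4 on mouse day 5 (median -1.18), with 0 rises. Klhl3, the adaptor that sends WNK kinases to degradation, stood at -2.63 and -2.81 on mouse days 2 and 5, and its substrate gene Wnk4 at -1.12 and -1.28, in the authors' deposited tables. Wnk1 stood at -1.42 and -1.07 on those days in the authors' deposited tables. Markers of the distal convoluted tubule moved beside Slc12a3: of 4 markers 0 were listed on Acomys day 2, 1 rose and 1 fell on Acomys day 5, and 1 rose and 3 fell on each mouse day. The calcium-binding protein gene Calb1 stood at -2.82 on Acomys day 5, -4.29 on mouse day 2 and -3.92 on mouse day 5, while the calcium channel gene Trpv5 stood at 2.65, 1.90 and 1.68 in the same comparisons, in the authors' deposited tables. The part of these cells in the result was not tested.

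**Figure D3:**
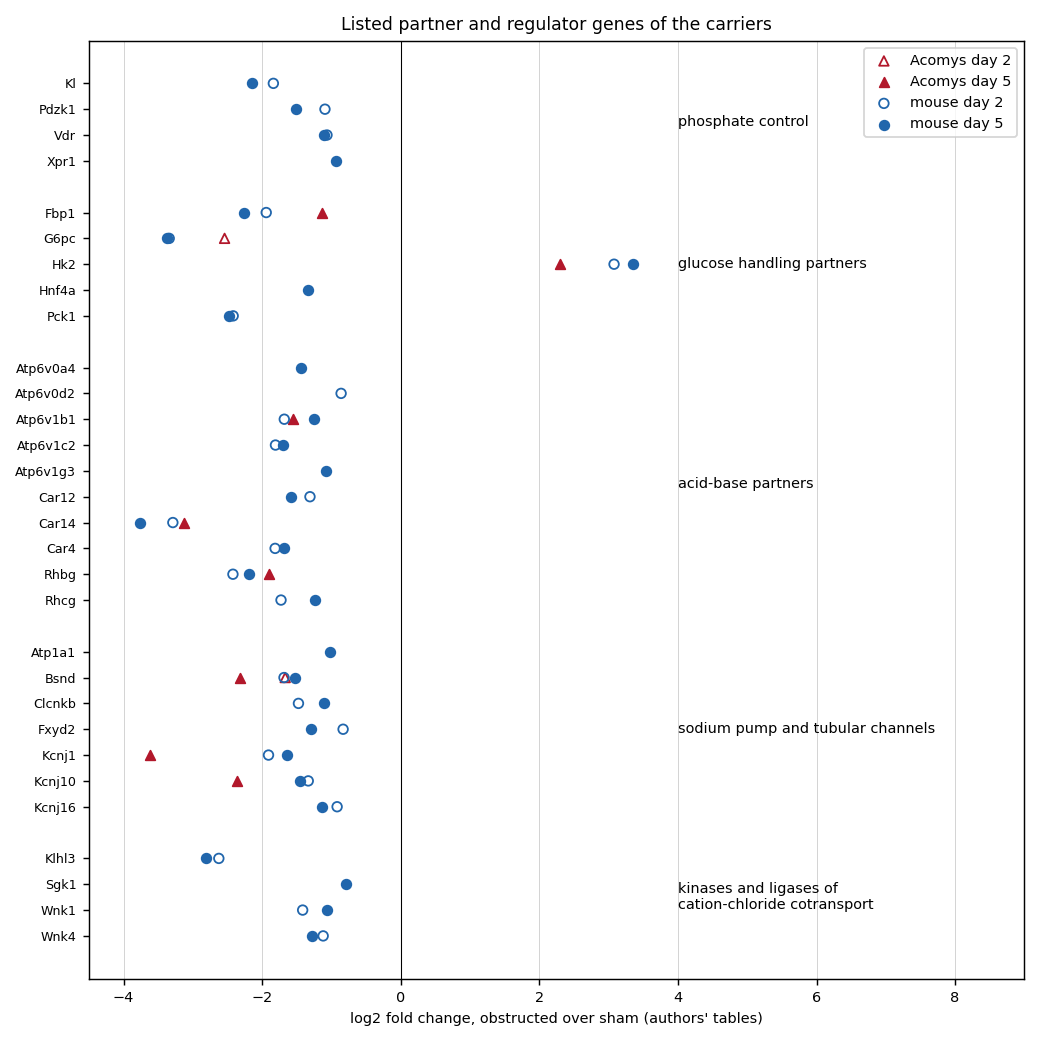
Log2 fold change, obstructed over sham, of listed partner and regulator genes, grouped by list, with triangles for Acomys and circles for mouse, open on day 2 and filled on day 5. Every symbol lies left of 0 except those of Hk2 (2.30 on Acomys day 5, 3.08 on mouse day 2 and 3.35 on mouse day 5). The lists were chosen with earlier results of these data known, so the shared direction is not independent of that choice.

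Calcium exchangers differed by gene. Slc8a1, which encodes NCX1, the exchanger that passes calcium to the blood side of the distal tubule, stood at -1.75 on Acomys day 5 (FDR 0.0199), -2.13 on mouse day 2 (FDR 0.000130) and -1.67 on mouse day 5 (FDR 0.000834) in the authors' deposited tables. Slc8a2 (NCX2), known from brain, rose by 1.73 on Acomys day 5 (FDR 0.0329, logCPM 0.23), and Slc24a5, a potassium-dependent exchanger known from pigment cells, by 1.34 (FDR 0.0276, logCPM 1.16), in the authors' deposited table. Neither was listed in mouse.

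**Figure D4:**
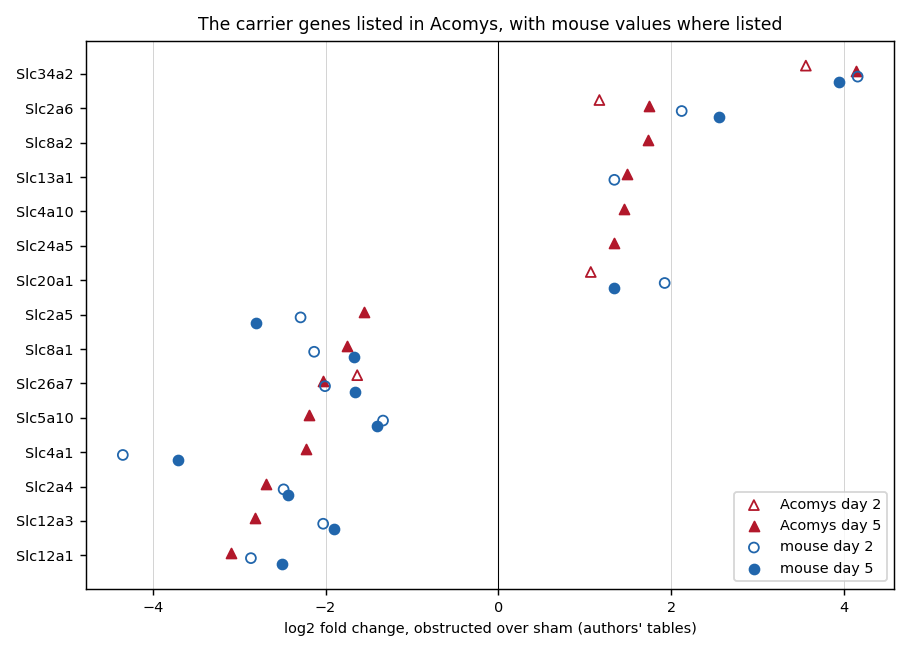
Log2 fold change, obstructed over sham, of the 15 carrier genes listed in Acomys (triangles), with the mouse values of those also listed in mouse (circles), open on day 2 and filled on day 5. No gene has symbols on both sides of 0, Slc34a2 lies farthest right in both species, and Slc8a2, Slc4a10 and Slc24a5 have no mouse value.

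The species shared some of their listed carriers. On day 2, 4 genes were listed in both species, which is the whole Acomys list and 11.4% of the mouse list, with 3 rises and 1 fall in common. On day 5, 10 genes were listed in both, 71.4% of the Acomys list and 21.3% of the mouse list, with 2 rises and 8 falls in common. No gene was listed in opposite directions on the same day. Neither the overlap of all listed genes between the species nor their agreement in direction was computed. Whether these shares and the common directions are particular to carriers is thus not known. The genes that fell in both on day 5 were Slc12a1, Slc12a3, Slc26a7, Slc2a4, Slc2a5, Slc4a1, Slc5a10 and Slc8a1, and those that rose were Slc2a6 and Slc34a2. The 4 that Acomys alone listed on day 5 were Slc13a1, Slc24a5, Slc4a10 and Slc8a2, all of them rises.

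The smallest fall that was listed differed between species. Over all entries it was 1.23 on Acomys day 2 and 1.12 on Acomys day 5. In mouse it was 0.742 on day 2 and 0.722 on day 5. At a logCPM above 6 the smallest fall listed in Acomys was 1.47 on day 2, among 7 such falls, and 1.14 on day 5, among 55. Of 26 mouse falls on day 2 that were not listed in Acomys, 13 had a mouse logCPM above 6 and 7 of these were larger than 1.47. Of 27 on day 5, 13 had a mouse logCPM above 6 and 10 were larger than 1.14. These include Slc34a1, whose mouse day 5 value of -2.17 was listed at a mouse logCPM of 12.01 in the authors' deposited table. The smallest listed fall is not a limit above which every Acomys fall would be listed. Calb1, for example, stood at -2.82 on Acomys day 5 (FDR 0.0306, logCPM 7.76) in the authors' deposited table. Sizes in mouse therefore cannot tell whether the missing genes fell in Acomys. The difference between species was not tested for any gene. Whether each of these genes had a tested locus in Acomys, or a locus listed without a symbol, is not known.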

How the data were processed

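Per the submitters' processing notes the authors used Salmon and edgeR and named the mouse build mm9. Not given in the sources used here: versions, filters, library totals and the Acomys reference. The 4 tables hold the authors' comparisons. Per the file headers they give a log fold change, read as log2 because edgeR writes it so, a logCPM and an FDR. The authors' log2 values are obstructed over sham by the names of the tables. Each deposited FDR, a p-value the authors adjusted, lies under 0.05. The authors' logCPM was identical on both days for the carrier genes listed on both.

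Nothing was refitted. Acomys entries are numbered loci with symbols assigned by the authors, and symbols were missing for 644 of 1765 loci (day 2) and 1094 of 2500 (day 5), so close paralogues there are uncertain. Carriers among the loci without a symbol were not counted. The p-values set the difference between groups against the spread between libraries, and the labels do not say whether each library is a separate animal. Counting by symbol used Python 3.11.15 and pandas 2.3.3 and was tested on simulated data. Named genes are the carrier genes listed, with the highest and lowest partner genes; a few genes are counted but not reported here by name. The members and lists were chosen with earlier results of these data known. Shares of sham are 2 raised to the log2 fold change. Gene and promoter annotation is RefSeq on GRCm38.p6, another build, so no coordinates are joined to the tables.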

Additional observations from a re-analysis of the deposited data

How the results depend on the processing

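Counts of carrier genes were recomputed at FDR under 0.01, with an absolute log2 fold change of at least 1, with logCPM above 0, without Slc4a1ap, Slc9a3r1 and Slc9a3r2, per locus, and, chosen after seeing the data, without Slc13a2os. Leaving out Slc4a1ap, Slc9a3r1 and Slc9a3r2 could not move any count, because none of them was listed. Leaving out Slc13a2os could move only counts that include mouse day 5, where alone it was listed. The counts per locus used the same entries with a symbol. Of 68 values 46 equalled the count as deposited, and the tally is not a measure of stability. Of the 68, 61 stayed within 1.5 times the count as deposited and 7 did not, all of them at FDR under 0.01 and all involving Acomys. There, falls numbered 0 on Acomys day 2 (1 as deposited) and 1 on Acomys day 5 (8 as deposited), and rises 1 and 2 (3 and 6 as deposited). Genes listed in both species numbered 1 on day 2 (4 as deposited) and 3 on day 5 (10 as deposited), and those on both Acomys days, which share sham libraries, 1 (3 as deposited). Most Acomys calls thus lay between the 2 thresholds, and the excess of falls on Acomys day 5 rests on the looser one. No paired analysis was possible because the tables hold no values per library, and for the same reason no library could be left out. Depth limits which genes could be listed, and it is not known here.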
